A study of Homo sapiens with 4 samples.

Results

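MHC class I antigen presentation was examined through 9 genes of the pathway, HLA-B, HLA-C, HLA-E, HLA-F, B2M, TAP1, TAP2, TAPBP and NLRC5, taken by symbol from the 55765 genes of a read-count table. The RNA came from SK-N-BE(2)C, a human neuroblastoma cell line. One group had received 10 µM all-trans retinoic acid (ATRA), a vitamin A derivative that drives neuroblastoma cells towards differentiation, for 144 hours, and the other had received its solvent, ethanol, for the same 144 hours. Each group had 2 libraries of total RNA depleted of ribosomal RNA, sequenced in bulk. No other classical class I heavy chain gene was used here, and every sum over heavy chains covers HLA-B, HLA-C, HLA-E and HLA-F alone.

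Class I molecules show fragments of a cell's own proteins to CD8 T cells and are also read by natural killer cells. Proteasomes cut the proteins, the TAP1 and TAP2 transporter moves the peptides into the endoplasmic reticulum, tapasin (TAPBP) holds an empty class I molecule beside the transporter, and a heavy chain with its partner B2M leaves for the surface once it has bound a peptide. NLRC5 is a transcriptional activator of these genes, interferons raise them, and neuroblastoma is known for low surface class I.

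The start of the genes carries the shared control elements of the family, so the 250 bases before the RefSeq start (GRCh38.p14) are shown for 3 heavy chains and for B2M, their common partner. They are written 5′ to 3′ on the gene's strand, and capitals mark matches to GAAANNGAA or GAANNGAAA (interferon response element cores), GGGANTCCC (an NF-kappaB core), TGACG (a CRE core) and CCAAT (the NF-Y box), on either strand.
HLA-C (chr6:31272093-31272342, minus strand): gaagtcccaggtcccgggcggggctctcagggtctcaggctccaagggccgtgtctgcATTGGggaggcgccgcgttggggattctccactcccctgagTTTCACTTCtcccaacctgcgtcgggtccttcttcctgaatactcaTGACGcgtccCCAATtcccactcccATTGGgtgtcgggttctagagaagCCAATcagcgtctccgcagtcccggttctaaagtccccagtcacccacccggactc
HLA-B (chr6:31357180-31357429, minus strand): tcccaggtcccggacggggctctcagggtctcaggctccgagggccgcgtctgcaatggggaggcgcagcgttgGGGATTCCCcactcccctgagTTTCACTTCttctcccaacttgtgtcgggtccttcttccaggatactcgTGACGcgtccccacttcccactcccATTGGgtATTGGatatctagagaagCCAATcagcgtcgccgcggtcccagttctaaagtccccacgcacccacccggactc
HLA-F (chr6:29723184-29723433, plus strand): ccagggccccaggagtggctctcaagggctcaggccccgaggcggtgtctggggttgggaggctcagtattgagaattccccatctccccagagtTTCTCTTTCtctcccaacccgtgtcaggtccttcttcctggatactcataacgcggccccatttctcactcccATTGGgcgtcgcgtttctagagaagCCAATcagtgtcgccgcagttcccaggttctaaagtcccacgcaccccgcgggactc
B2M (chr15:44711267-44711516, plus strand): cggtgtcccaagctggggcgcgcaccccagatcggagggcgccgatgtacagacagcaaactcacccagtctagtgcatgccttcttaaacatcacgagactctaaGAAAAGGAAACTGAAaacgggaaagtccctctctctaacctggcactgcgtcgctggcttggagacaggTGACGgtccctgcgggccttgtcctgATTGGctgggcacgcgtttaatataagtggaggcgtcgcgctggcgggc

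The heavy chain promoters were close copies of each other. HLA-C and HLA-B were identical at 89.0% of aligned bases, HLA-F and HLA-B at 80.4%, and HLA-F and HLA-C at 78.7%, whereas B2M and HLA-C were identical at 49.2%. RefSeq windows, which also hold the 50 bases after the start, were found for 7 of the 9 genes; HLA-E and NLRC5 had none in the table used.

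CCAAT occurred in 5 of the 7 genes (B2M, HLA-B, HLA-C, HLA-F and TAP1), and in 34.6% of all 35116 promoter windows. TGACG occurred in 4 (B2M, HLA-B, HLA-C and TAP2), against 24.6% of windows. The interferon core GAAANNGAA occurred in 5 (B2M, HLA-F, TAP1, TAP2 and TAPBP), against 8.11% of windows, and its other form GAANNGAAA, a motif added after the sequences were seen, in 3 (HLA-B, HLA-C and TAP2), against 7.66%. In B2M, TAP1, TAP2 and TAPBP 2 such cores overlapped. GGGANTCCC lay in HLA-B (0.877% of windows) and GGGANTTCC in TAPBP (1.85%). The retinoid receptor cores AGGTCA (13.8% of windows) and GGTTCA (8.62%), their direct repeats, and the E box CACGTG (7.26%) were in none of the 7. A match describes letters in this window and was not tied to any binding.

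The libraries held 15518828 and 16498355 assigned reads with ATRA, and 12850462 and 19883465 with ethanol, and levels are given as CPM, which are counts divided by library size after TMM scaling. Mitochondrial ribosomal RNA took 2.49% and 0.130% of reads in ATRA libraries 1 and 2, and 5.96% and 0.0291% in ethanol libraries 1 and 2, so each group had 1 library with more of it. Protein-coding genes took 73.6% and 84.4% of reads in ATRA libraries 1 and 2, and 73.4% and 84.2% in ethanol libraries 1 and 2, so libraries 1 were alike in this and libraries 2 were alike. The part of this in the class I values was not tested. All 8 neuroblastoma markers had reads, with summed levels of 3656 and 2914 CPM with ATRA and 5162 and 4250 CPM with ethanol. All 4 retinoid-response genes (CYP26A1, CYP26B1, RARB and DHRS3) rose with ATRA in edgeR's quasi-likelihood test at an adjusted p under 0.05. DESeq2 also called 4 higher, but limma-voom called only 1, CYP26A1 (limma-voom adjusted p = 0.0390). Nothing in the labels tells if separate cultures were used, so p-values measure the spread between these libraries, which may be technical. In bulk RNA, fewer cells expressing a gene and less RNA per cell cannot be told apart.

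None of the 9 genes passed the test for a difference between ATRA and ethanol. Of the 9, 6 had enough reads to be tested, and 0 of those were called by edgeR (Benjamini-Hochberg adjusted p under 0.05), where 0.698% of the 18900 genes tested were called. At an unadjusted p under 0.05 there were 0 of 6 with edgeR, where 15.9% of all genes tested were. There was 1 with DESeq2 (HLA-E) and 0 with limma-voom. For these tools the share of all genes at that unadjusted p was not counted. At an adjusted p under 0.05, DESeq2 called 7.3% of all genes and limma-voom 0.265%. Limma-voom called 0 of the 6 and DESeq2 0 of 5, since it gave HLA-B no adjusted p. In 4 of the 6 (HLA-B, HLA-C, HLA-E and B2M) both ATRA libraries lay above both ethanol libraries, and in 0 of the 6 both lay below. Among all genes tested 23.8% lay wholly above and 21.7% wholly below.

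**Figure D1:**
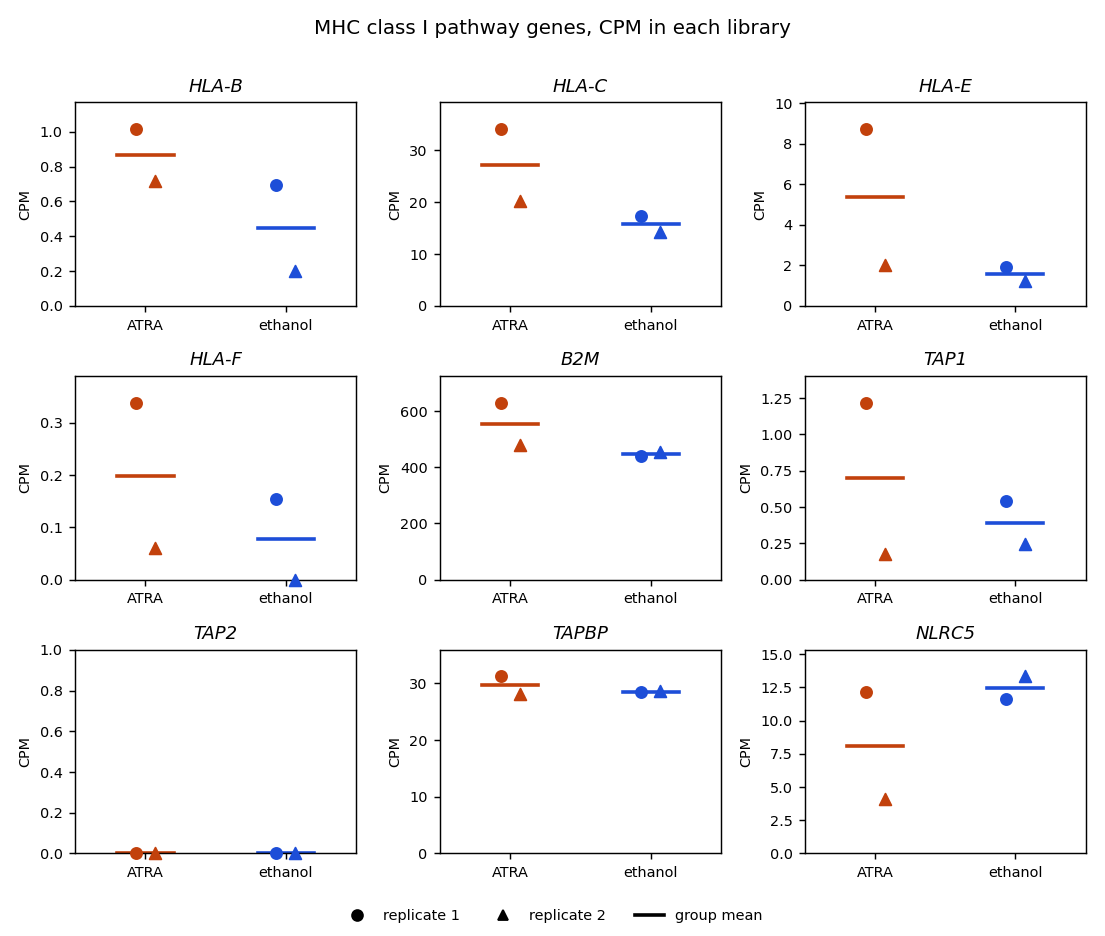
Level of each gene (CPM, linear axis from 0, a scale of its own in each panel) in the 2 ATRA and 2 ethanol libraries; circles and triangles are replicates 1 and 2, and bars are group means. ATRA replicate 1 is the highest library for HLA-B, HLA-C, HLA-E, HLA-F, B2M, TAP1 and TAPBP, and ATRA replicate 2 is the lowest for NLRC5 at 4.07 CPM.

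Among the heavy chains, HLA-C, a classical chain read by T cells and by killer-cell receptors, supplied most reads. Its level was 34.1 and 20.2 CPM with ATRA, against 17.3 and 14.2 CPM with ethanol (504, 337, 225 and 287 reads in the same order). The groups did not overlap, but ATRA library 2 lay closer to the ethanol libraries than to ATRA library 1. The log2 fold change was 0.78 ± 0.35 (SE; edgeR adjusted p = 0.360), and 0.35 without ATRA library 1.

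HLA-E, a non-classical chain that presents leader peptides of other class I chains to the NKG2A receptor of natural killer cells, stood at 8.74 and 2.03 CPM with ATRA, against 1.92 and 1.24 CPM with ethanol. ATRA library 1 held 129 reads and the other 3 libraries 34, 25 and 25. The groups did not overlap, but the lower ATRA value was close to the higher ethanol value. The log2 fold change was 1.77 ± 0.80 (SE; edgeR adjusted p = 0.359). It was 0.37 ± 1.00 without ATRA library 1, and 2.46 with an edgeR adjusted p of 0.0476 without ATRA library 2.

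HLA-B, the other classical chain here, was scarce at 1.02 and 0.718 CPM with ATRA, against 0.693 and 0.198 CPM with ethanol. These levels rest on 15 and 12 reads with ATRA and 9 and 4 with ethanol. The groups did not overlap, though ATRA library 2 and ethanol library 1 were near each other, and the log2 fold change was 1.00 ± 0.87 (SE; edgeR adjusted p = 0.682).

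HLA-F, a non-classical chain, had 5 and 1 reads with ATRA, against 2 and 0 with ethanol. It was too low to be tested, and the ratio of summed reads per depth was 3.16 with a 95% exact interval of 0.565 to 32.0, which covers counting error only.

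Summed over the 4 genes, heavy chain reads came to 653 and 384 with ATRA, against 261 and 316 with ethanol, or 44.2 and 23.0 CPM against 20.1 and 15.7 CPM. The ATRA libraries lay above the ethanol libraries, with ATRA library 2 again near them. The log2 fold change of the sum was 0.91 ± 0.39 (SE; edgeR adjusted p = 0.332), and 0.36 without ATRA library 1. HLA-C made up 77.2% and 87.8% of the sum with ATRA, against 86.2% and 90.8% with ethanol. HLA-E made up 19.8% and 8.85% with ATRA, against 9.58% and 7.91% with ethanol, so ATRA library 1 held the largest HLA-E share of the 4.

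**Figure D2:**
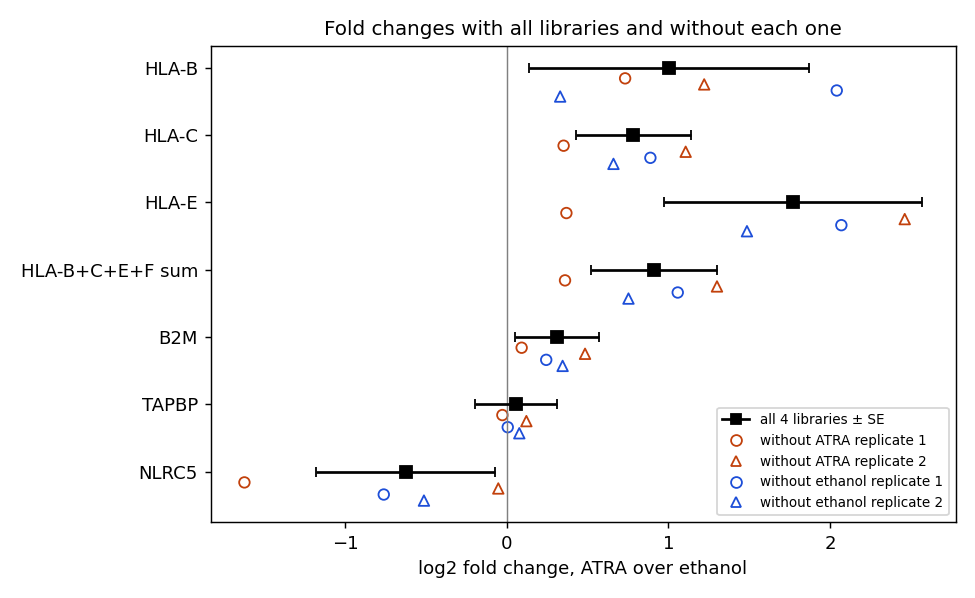
Log2 fold change of ATRA over ethanol (horizontal axis) for the 6 tested genes and the summed heavy chains; squares with bars are the estimate from all 4 libraries ± SE, and open symbols are estimates with 1 library left out. HLA-E runs between 0.37 without ATRA replicate 1 and 2.46 without ATRA replicate 2, and NLRC5 between -1.62 and -0.05 without the same libraries.

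B2M, the light chain that every class I heavy chain needs to reach the surface, had the highest level per length of the 9 genes in every library. Its level was 630 and 479 CPM with ATRA, against 441 and 454 CPM with ethanol. ATRA library 1 stood apart, and ATRA library 2 was close to the ethanol libraries. The log2 fold change was 0.31 ± 0.26 (SE; edgeR adjusted p = 0.666), and 0.09 without ATRA library 1. For each heavy chain read there were 14.2 and 20.9 B2M reads with ATRA, against 21.9 and 29.0 with ethanol, so both ATRA ratios were below both ethanol ratios; these are read ratios, not corrected for length.

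The peptide transporter was near the limit of detection. TAP1 had 18 and 3 reads with ATRA, against 7 and 5 with ethanol, and its groups overlapped. The ratio of summed reads per depth was 1.84, with an exact interval of 0.866 to 4.11. TAP2, its partner subunit, was at 0 reads in all 4 libraries, which allows up to 0.0953 CPM over the ATRA pair and 0.0904 CPM over the ethanol pair. In the GENCODE 29 annotation 32.3% of TAP2 exon bases are shared with another gene on the same strand. How such reads were counted is not given, so the 0 is a statement about assigned reads.

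TAPBP was nearly level across libraries. It was at 31.2 and 28.1 CPM with ATRA, against 28.4 and 28.6 CPM with ethanol, and the groups overlapped. The log2 fold change was 0.06 ± 0.25 (SE; edgeR adjusted p = 0.958).

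NLRC5 was the gene with a negative estimate. Its level was 12.1 and 4.07 CPM with ATRA, against 11.6 and 13.3 CPM with ethanol (179, 68, 151 and 269 reads in the same order). ATRA library 1 lay between the ethanol libraries and ATRA library 2 was far below them. The log2 fold change was -0.63 ± 0.55 (SE; edgeR adjusted p = 0.691), -1.62 without ATRA library 1 and -0.05 without ATRA library 2. NLRC5 was therefore lowest in ATRA library 2, whereas the heavy chains and B2M were highest in ATRA library 1.

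Per kilobase of exon, B2M led with 91.3 ± 17.6 CPM per kb with ATRA and 73.6 ± 1.56 with ethanol (SD, n = 2 each). HLA-C followed at 10.8 ± 3.94 and 6.29 ± 0.875, and TAPBP at 5.87 ± 0.435 and 5.64 ± 0.0323, in the same unit and order of groups. HLA-C and TAPBP did not overlap with ATRA or with ethanol, though the ethanol values came as close as 5.67 and 5.66. HLA-E had 1.81 ± 1.59 with ATRA and 0.532 ± 0.163 with ethanol, and NLRC5 0.654 ± 0.460 with ATRA and 1.01 ± 0.0973 with ethanol. These 2 genes stood in opposite order in the groups, and their values overlapped with ATRA but not with ethanol. HLA-B (0.284 with ATRA, 0.146 with ethanol), TAP1 (0.146 and 0.0819), HLA-F (0.0459 and 0.0177) and TAP2 (0) came last. HLA-B overlapped TAP1 in both groups, while NLRC5 overlapped HLA-B, and TAP1 overlapped HLA-F, with ATRA alone. With the longest transcript as the length, the order was the same in each group.

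**Figure D3:**
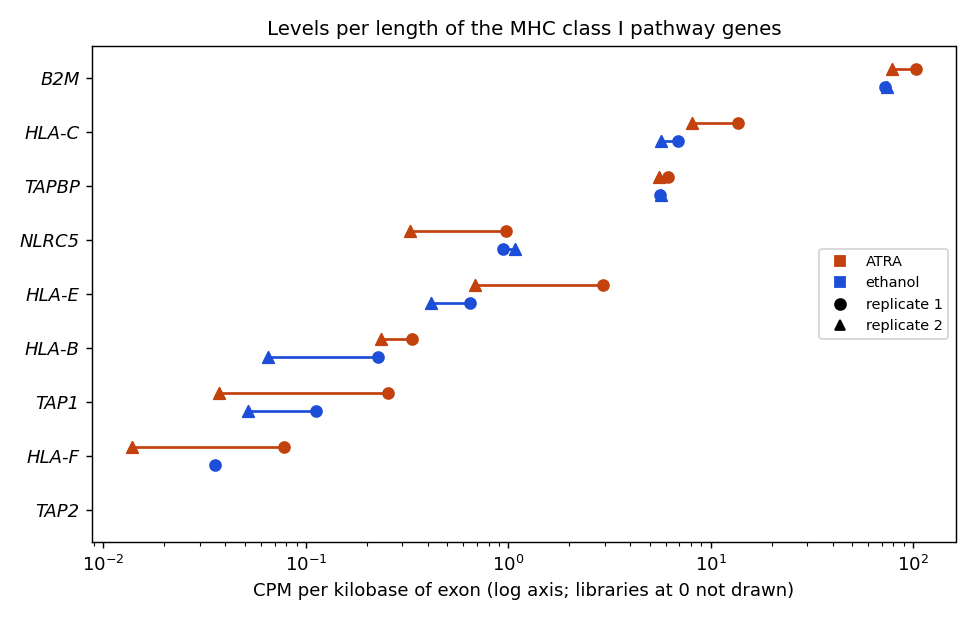
Level per length (CPM per kilobase of exon, log axis) of the 9 genes in the ATRA libraries (upper row of each gene) and the ethanol libraries (lower row); lines join the 2 libraries of a group, and values of 0 are not drawn. B2M averages 91.3 with ATRA and 73.6 with ethanol, and TAP2 has no point.

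Genes around the pathway were looked at in lists, read against a median log2 fold change of 0.01 over all 18900 genes. Where edgeR called 0 genes of a list, limma-voom also called 0, and so did DESeq2 except where its calls are given. At an unadjusted edgeR p under 0.05 there were 0 genes in peptide generation, loading chaperones, pseudogenes and class II. Class I-like genes, Polycomb complex 2 and class I degradation had 1 each. Promoter factors had 2, as did the list of interferons, receptors, kinases and SOCS genes. Ligands of T and NK cells had 3. Of all genes tested, 15.9% lay under that p. In peptide generation and trimming, 0 of 11 tested genes were called and the median was 0.19. ERAP2, a peptidase that trims peptides in the endoplasmic reticulum, was at 3.93 and 3.17 CPM with ATRA, against 1.31 and 1.78 CPM with ethanol. PSME1, a subunit of a proteasome activator, was at 32.4 and 40.3 CPM with ATRA, against 43.5 and 59.3 CPM with ethanol. Neither group pair overlapped, and the edgeR adjusted p was 0.357 for ERAP2 and 0.473 for PSME1. Among loading chaperones 0 of 6 were called, with a median of 0.07; the oxidoreductase PDIA3 had a log2 fold change of 0.27 ± 0.24 and the export receptor BCAP31 0.34 ± 0.25.

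Class I-like genes, several of them ligands of the NKG2D receptor, had 4 of 13 genes tested, 0 called, and a median of 1.08. ULBP2, an NKG2D ligand, was at 3.39 and 5.50 CPM with ATRA, against 2.16 and 1.68 CPM with ethanol (edgeR adjusted p = 0.351). FCGRT, which encodes the heavy chain of the neonatal Fc receptor and pairs with B2M, was at 22.4 and 12.2 CPM with ATRA, against 11.9 and 11.7 CPM with ethanol (edgeR adjusted p = 0.591). Of 2 tested class I pseudogenes, HLA-L had a log2 fold change of -0.15 ± 0.54. MHC class II genes had 4 of 13 tested, 0 called and a median of 0.07.

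Among 20 factors that act at class I promoters, 0 were called by edgeR and the median was 0.03, while DESeq2 called 1 higher. STAT3, a transcription factor of cytokine signalling, was at 227 and 135 CPM with ATRA, against 76.1 and 80.9 CPM with ethanol, with no overlap. Its log2 fold change was 1.20 ± 0.32, with an adjusted p of 0.148 by edgeR and 0.0264 by DESeq2. STAT2, part of the type I interferon response complex, was at 29.7 and 40.3 CPM with ATRA, against 8.24 and 18.8 CPM with ethanol (edgeR adjusted p = 0.216).

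Polycomb complex 2, which deposits a repressive histone mark, had 4 tested subunits, 0 called, and a median of -0.67. SUZ12 was at 26.0 and 32.1 CPM with ATRA, against 43.4 and 48.9 CPM with ethanol, and EED at 19.8 and 13.7 CPM against 35.0 and 23.3 CPM. The groups did not overlap for either, and the edgeR adjusted p was 0.284 for SUZ12 and 0.342 for EED.

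In the list of interferons, receptors, kinases and SOCS genes, 9 of 15 genes were tested and 0 were called, with a median of 0.71. The 9 held no interferon, since none had enough reads, and they included SOCS3, which is neither a receptor nor a kinase. In 8 of the 9, both ATRA libraries lay above both ethanol libraries, where 23.8% of all genes did. JAK1, a kinase used by interferon receptors, was at 100 and 112 CPM with ATRA, against 32.8 and 63.5 CPM with ethanol (edgeR adjusted p = 0.203). IFNGR2, a chain of the interferon gamma receptor, was at 42.1 and 30.0 CPM with ATRA, against 20.4 and 23.7 CPM with ethanol (edgeR adjusted p = 0.319).

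Of 12 tested interferon-stimulated genes, edgeR called 1 higher and 0 lower, with a median of 0.95. DESeq2 called 2 higher and limma-voom 0. An unadjusted edgeR p under 0.05 was found for 4, where 15.9% of all genes tested lay under that p. Both ATRA libraries lay above both ethanol libraries in 8 and below them in 1, against 23.8% and 21.7% of all genes. The gene called by edgeR, SAMD9L, an interferon-induced growth suppressor, was at 19.3 and 15.0 CPM with ATRA, against 0.154 and 0.297 CPM with ethanol. Its log2 fold change was 6.14 ± 0.54 (SE), with an adjusted p of 0.0274 by edgeR and 0.0515 by limma-voom. The ethanol pair held 8 reads in all, so the size of this fold rests on few reads.

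Genes of class I degradation had 7 tested, 0 called and a median of 0.30. SUSD6, an adaptor that promotes class I turnover, was at 27.4 and 27.3 CPM with ATRA, against 10.5 and 14.6 CPM with ethanol (edgeR adjusted p = 0.154), and its partner TMEM127 at 17.9 and 20.2 CPM against 11.1 and 16.7 CPM. Ligands of T and NK cells had 6 tested, 0 called by edgeR and a median of 1.00. CD276, an immune checkpoint ligand, was at 224 and 186 CPM with ATRA, against 74.0 and 81.0 CPM with ethanol. Its adjusted p was 0.0706 by edgeR and 0.000483 by DESeq2. NECTIN2, a ligand of natural killer receptors, was at 80.9 and 63.4 CPM with ATRA, against 24.3 and 32.0 CPM with ethanol (edgeR adjusted p = 0.0949). DESeq2 called 2 genes of this list higher.

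**Figure D4:**
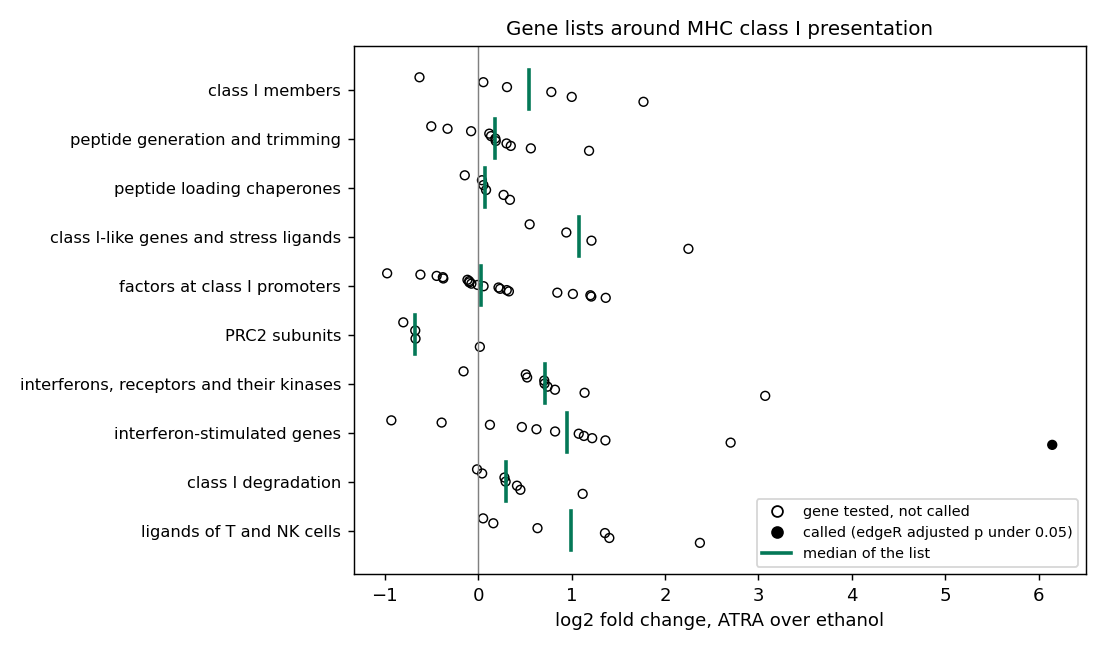
Log2 fold change of ATRA over ethanol for every tested gene of each list; filled circles are genes called by edgeR, open circles genes not called, and green lines list medians. SAMD9L at 6.14 is the one called gene drawn, and the list medians lie between -0.67 for Polycomb complex 2 subunits and 1.08 for class I-like genes.

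Most class I genes lie in the MHC region of chromosome 6, and neighbours there were counted for comparison. Of 82 tested protein-coding neighbours between HLA-F and TAPBP, 0 were called by edgeR, while DESeq2 called 6 and limma-voom 0. An unadjusted edgeR p under 0.05 was found for 13, or 15.9%, against 18.8% of protein-coding genes tested and 15.9% of all genes tested. The DESeq2 calls were 7.32% of the neighbours where 7.3% of all genes, coding or not, were called. The neighbours had a median log2 fold change of 0.05, with 25 (30.5%) wholly above and 16 (19.5%) wholly below the ethanol libraries. Among protein-coding genes tested 26.7% lay wholly above and 23.5% wholly below, against 23.8% and 21.7% of all genes tested. The median of the 6 tested class I genes was 0.55, but B2M (chromosome 15) and NLRC5 (chromosome 16) among them lie outside this region.

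Leukocyte markers, looked at because immune cells carry much class I, summed over 10 genes to 28.4 and 18.7 CPM with ATRA, against 11.6 and 9.46 CPM with ethanol. Of the 3 tested, edgeR called 0, with 1 at an unadjusted p under 0.05, DESeq2 called 1 and limma-voom 0. CD14, the monocyte co-receptor, had 281 and 113 reads with ATRA, against 35 and 33 with ethanol. It was the largest part of the sum in ATRA library 1 alone. CORO1A, another leukocyte marker, was the largest part in the other libraries. It was at 7.52 and 11.1 CPM with ATRA, against 8.01 and 7.53 CPM with ethanol, and its groups overlapped. LYZ and TYROBP, defining myeloid genes, were at 0 in all 4 libraries. Over the 4 libraries, CD14 (19.0 and 6.76 CPM with ATRA, against 2.69 and 1.64 CPM with ethanol) and the leukocyte sum stood in the same order as the heavy chain sum. The other tested leukocyte markers, CORO1A and PTPRC, did not stand in that order. Among all genes tested, 23.8% had both ATRA libraries above both ethanol libraries. That is a looser condition than the full order, and the share of genes in the full order was not counted.

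Stromal and endothelial markers summed over 7 genes to 126 and 347 CPM with ATRA, against 234 and 552 CPM with ethanol, and DCN, a matrix proteoglycan, gave 40.9 and 246 CPM of that with ATRA and 139 and 310 CPM with ethanol. The members went different ways. COL1A1, a collagen chain, had 339 and 82 reads with ATRA, against 0 and 13 with ethanol, and was highest in ATRA library 1 as the heavy chains were (edgeR adjusted p = 0.128). LUM, a matrix proteoglycan, was at 13.7 and 21.8 CPM with ATRA, against 39.8 and 126 CPM with ethanol, with an adjusted p of 0.145 by edgeR and 0.00193 by DESeq2. The part of leukocyte and stromal markers in the class I values was not tested.

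The nearest profiles to the mean of HLA-C, HLA-E, B2M, TAPBP and NLRC5, by Euclidean distance of centred log2 CPM over the 4 libraries among 9561 protein-coding genes, were those of SBNO2 (distance 0.0701), PON2 (0.0869), FKBP10 (0.0886), SNAPC2 (0.0887) and MID1 (0.0889). That mean was 0.66 in ATRA library 1, -0.32 in ATRA library 2, and -0.10 and -0.23 in the ethanol libraries, so the likeness follows ATRA library 1. In ATRA library 2 NLRC5 stood at -1.18 and TAPBP at -0.05, both below their ethanol values. HLA-C, HLA-E and B2M were higher in ATRA library 2 than in either ethanol library, so the mean does not describe them there.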

How the data were processed

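Total RNA of 4 libraries was measured by RNA-seq after ribosomal RNA removal, with a strand-marking kit per the labels' protocols. The authors deposited raw read counts per gene. The submitters' processing notes name STAR 2.5.2b, featureCounts 1.5.1 and the hg19 build. The sources used here do not name the gene models counted, the use of strand, or the handling of reads that fell on several loci. Near-identical class I genes, and alleles unlike the genome's, may lose or swap reads, which was not tested.

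Genes were kept with edgeR's filter at a minimum count of 10, scaled by TMM and tested with edgeR 4.0.16 quasi-likelihood (R 4.3.3), with Benjamini-Hochberg adjustment over 18900 genes and a threshold of 0.05. DESeq2 1.42.0, limma 3.58.1 and other scalings, filters and left-out libraries were alternatives. Totals ran between 12850462 and 19883465 reads. A count of 0 allows 3 reads, and 95% intervals cover counting error only. Exon lengths came from GENCODE 29 and promoter sequences from RefSeq GRCh38.p14, neither being the files' build; no coordinates of the files were used.

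All 9 genes are named. From each list, up to 3 called genes per direction were named by smallest p, or else the 2 with the smallest p and a mean log2 CPM of at least 1. Profiles most like the pathway were the 5 nearest protein-coding genes. Genes and lists were chosen with earlier results of these data known. SUSD6 and NECTIN2 were matched under older symbols, and PECAM1 was not analysed here. The result of 1 further promoter motif is not reported here. The code was tested on simulated data under 3 settings of spread, and recovery of altered genes depended strongly on that setting, so the simulation checks the code and not the power of this design.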

Additional observations from a re-analysis of the deposited data

How the results depend on the processing

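With 132 genes called by edgeR, the count was 274 over protein-coding genes alone, 1821 with every gene of at least 1 read, 1380 with DESeq2 and 50 with limma-voom, and between 870 and 1442 with 1 library left out; the cause was not tested. Leaving out a library leaves a lone sample assumed to vary like the other group. Titles share a replicate number, and nothing in them says that it marks pairs. Deviations of same-numbered libraries correlated at 0.632. With a replicate block edgeR called 4098 genes (21.7% of those tested) and DESeq2 2727. Under the edgeR block, 5 of 9 tested genes in the list of interferons, receptors, kinases and SOCS genes were called higher. So were 4 of 6 ligands of T and NK cells, 2 of 12 interferon-stimulated genes and 2 of 20 promoter factors. In addition, 1 of 4 class I-like genes and 1 of 7 degradation genes were called higher. Called lower were 3 of 4 Polycomb complex 2 subunits, 1 promoter factor and 1 interferon-stimulated gene. Of the 9 class I genes, 0 were called over all libraries without a block. With the edgeR block 2 were called (HLA-C, adjusted p = 0.0335, and HLA-E, adjusted p = 0.0484). DESeq2 with the block called 0 of them (HLA-C, adjusted p = 0.116, and HLA-E, adjusted p = 0.125). The summed heavy chain log2 fold change was 0.91, 0.85 with the replicate block (edgeR adjusted p = 0.0196), 0.83 with DESeq2 and the block (adjusted p = 0.0498), and 0.36 to 1.30 with a library left out (edgeR adjusted p = 0.0463 without ATRA library 2). Signs turned for TAPBP (-0.028 to 0.12 with a library left out), HLA-L (-0.46 to 0.10) and CORO1A (-0.056 to 0.50), a leukocyte marker, none of them called. HLA-B, HLA-F, TAP1 and TAP2 had at most 18 reads per library, so differences there were not detectable at this depth unless large.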
